A study of Mus musculus with 503 samples.

Results

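Most *Kcnj8* cells sorted from the uninjured mouse spinal cord carried RNA of both endothelial and pericyte genes. Of 276 uninjured cells, 179 had 20000 counts or more, *Kcnj8* (a potassium channel subunit that marks brain and cord pericytes) at 100 CPM or more, *Col1a1* (fibrillar collagen, a fibroblast marker) under 200 CPM, and fell into 1 of 3 groups by *Pecam1*, an adhesion molecule of endothelial junctions. CPM is counts per 1000000 counts of a cell or of a sum of cells. High cells (75 on plate 209 and 72 on plate 213) had *Pecam1* at 172 CPM or more and below *Pdgfrb*, the receptor that marks mural cells. Low cells (13) had *Pecam1* under 50 CPM. Endothelial-dominant cells (19) had *Pecam1* at 172 CPM or more and at or above *Pdgfrb*, and serve as a reference. The whole series holds 503 cells analysed here. The members were chosen by measured values of *Pecam1*, *Pdgfrb*, *Kcnj8*, *Col1a1* and depth, so these values describe the choice and support nothing.

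The mice were adults, labelled female (the study's methods name both sexes for its sequencing experiments), and carried GLAST-CreERT2, R26R-tdTomato and Pdgfrb-eGFP, so that EGFP follows the *Pdgfrb* promoter and tamoxifen-induced recombination leaves tdTomato in cells that use the GLAST gene (*Slc1a3*), also in cells that used it only at the time of tamoxifen. EGFP+ cells with or without tdTomato were sorted singly into 384-well plates and sequenced with Smart-seq3, which covers whole transcripts. Uninjured cells came from plates 209 and 213, and cells taken 3 days after a crush of the cord (SCI) came from plates 211 and 215. Each sample is 1 cell and no label names an animal, so each group was treated as 1 sample. No test was run between groups. Values on the 2 uninjured plates are given as the spread between plates, and no label says what else differed between them. All intervals are exact and cover counting error only.

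Pericytes lie in the basement membrane of capillaries and wrap the endothelial tube, with which they share contact points and paracrine signals. Endothelial PDGF-B recruits pericytes through *Pdgfrb*, and pericytes help the endothelium of brain and cord to form the blood–brain barrier, a sealed layer with tight junctions and dedicated nutrient and efflux transporters. *Pecam1*, *Cldn5* and *Flt1* are used as endothelial markers and *Kcnj8* as a pericyte marker.

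*Pecam1* had its lowest, median and highest values at 173, 766 and 1672 CPM in high cells, 0, 4.15 and 38.8 CPM in low cells and 577, 1178 and 2587 CPM in endothelial-dominant cells. The highest cell under the threshold had 171 CPM. Only 5 *Kcnj8* cells fell between 50 and 172 CPM, all of them tdTomato+, and they belong to no group. The highest ratio of *Pecam1* to *Pdgfrb* in a high cell was 0.979 and the lowest in an endothelial-dominant cell was 1.02, so no gap separates these groups. No *Kcnj8* cell lay between 38.8 and 110 CPM of *Pecam1*.

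*Pecam1* and *Kcnj8* both belong to the rule, and their joint values are given as a description. Of 184 cells with *Kcnj8* and without *Col1a1*, 166 reached 172 CPM of *Pecam1* (90.2%, exact 95% interval 84.98 to 94.1). Among 55 uninjured cells under the *Kcnj8* threshold from the same plates, 13 did so (23.6%, 13.2 to 37.02). The other 42 of these had a median of 15671 CPM over the fibroblast genes, and 12 of them had 10000 CPM or more over the smooth muscle genes. They had a median *Pecam1* of 0 and a highest value of 116.6 CPM, at a median depth of 273906 counts. The median depth of high cells was 264298 counts.

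High cells made up 82.1% of the 179 grouped cells (75.7 to 87.4). Their share was 82.4% on plate 209 and 81.8% on plate 213, 83.5% among tdTomato+ cells (86 cells) and 80.3% among tdTomato- cells (61 of 76), with intervals that overlap. Low cells were spread less evenly, with 3 of 91 on plate 209 and 10 of 88 on plate 213. Endothelial-dominant cells numbered 13 and 6 on these plates. Any value for low cells on plate 209 therefore rests on 3 cells.

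Other endothelial genes moved with *Pecam1*. Over a list of 26 endothelial genes without *Pecam1*, the summed level per cell was 4323, 21219 and 37505 CPM (lowest, median and highest) in high cells, 1325, 4588 and 14507 CPM in low cells and 19220, 25737 and 37095 CPM in endothelial-dominant cells. All but 17 high cells lay above every low cell, and no low cell reached the lowest endothelial-dominant cell. The groups overlapped at the bottom, where 7 of 13 low cells lay above the lowest high cell. High cells had a median of 22725 CPM on plate 209 and 20024 CPM on plate 213.

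**Figure D1:**
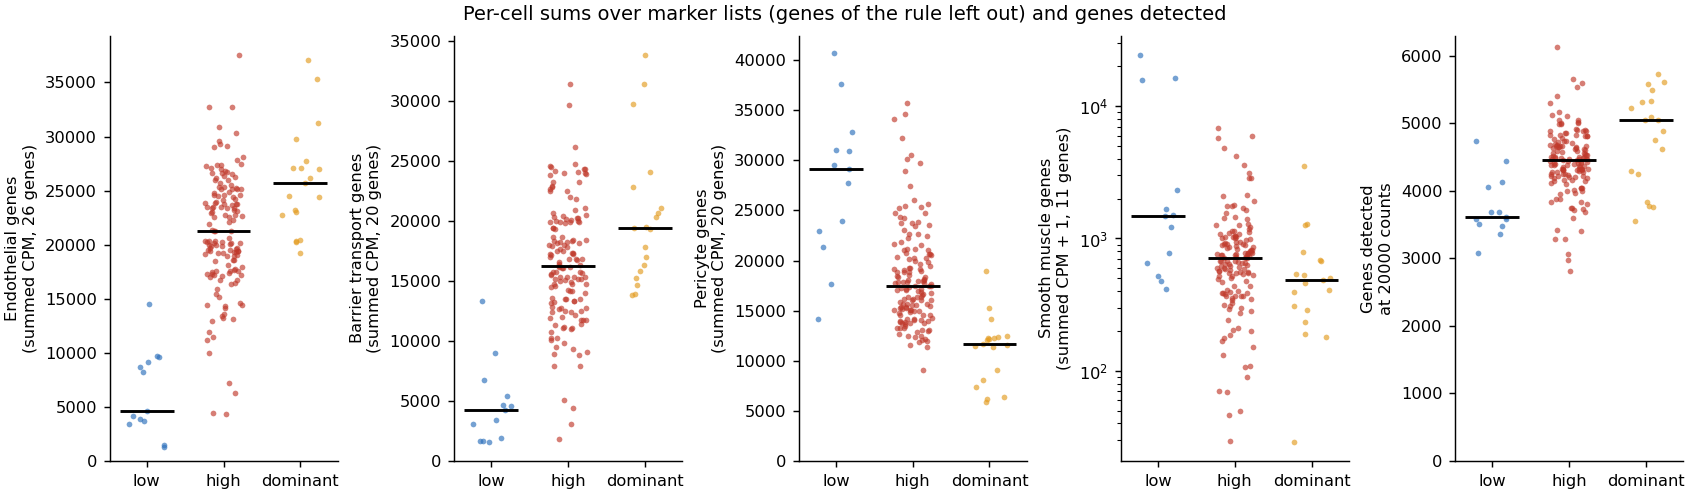
Per-cell summed CPM over 4 marker lists (genes of the rule left out) and the number of genes detected after each cell was thinned to 20000 counts; 1 point a cell, bars at the median, smooth muscle panel on a log axis. High cells lie between low and endothelial-dominant cells in the endothelial and pericyte panels, with medians of 21219 and 17456 CPM, and 3 low cells stand above 10000 CPM in the smooth muscle panel.

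Gene by gene, all 26 endothelial genes were higher in the summed counts of high cells than of low cells, and 23 were higher still in endothelial-dominant cells. The median log2 difference, high minus low, of log2(CPM + 1) was 1.97, against 0.03 over all 10062 genes that had 10 CPM or more in the mean of high and low cells. Of these 10062 genes, 5176 were higher in high than in low cells and 4731 were higher in endothelial-dominant than in high cells. The median of the endothelial list was 4.79 on plate 209 and 1.48 on plate 213, and 3.61 against the 6 low cells without any *Pecam1* count. All 26 genes passed the filter on low values, and 17 were at least 2-fold higher in the sums and on each plate, where 15.0% of all genes tested were. Since *Pecam1* of the same cells made the groups, nothing is read from these differences in shares.

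*Cldn5*, the claudin that seals barrier tight junctions, was at 91.4, 2398 and 9219 CPM in high cells (lowest, median, highest), 6.57, 208 and 1564 CPM in low cells and 1460, 2824 and 5924 CPM in endothelial-dominant cells. It was above every low cell in all but 18 high cells. In the sums it stood at 2241 CPM (2227 to 2255) in high and 580 CPM (554 to 607) in low cells, a 3.86-fold ratio, with log2 differences of 7.57 on plate 209 and 1.48 on plate 213. With all cells thinned to 20000 counts, *Cldn5* had a count in 100% of high cells, 84.6% of low cells and 23.8% of the 42 *Kcnj8*-poor cells with little *Pecam1*. The level in low cells of plate 213 thus lay well above that of plate 209.

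*Robo4*, an endothelial guidance receptor, had a larger ratio of the sums than *Cldn5*, and likewise all but 18 high cells exceeded every low cell. It was at 0, 155.4 and 851 CPM in high cells, 0, 0 and 30.1 CPM in low cells and 28.5, 208 and 1063 CPM in endothelial-dominant cells. Its summed level was 220 CPM (215 to 224) in high against 3.45 CPM (1.72 to 6.18) in low cells, a ratio of 63.7, and its log2 differences were 5.31 and 5.79 on plates 209 and 213. Of 4 endothelial transcription factors in the list, *Sox18* and *Fli1* passed the fold, and *Erg* (61.5 and 29.8 CPM in the sums of high and low cells) and *Sox17* (18.1 and 7.53 CPM) did not. *Sox18* stood at 183 and 11.9 CPM in the sums of high and low cells, and *Fli1* at 124.3 and 14.7 CPM.

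The receptors of endothelial growth factors and junctions were less uniform. *Kdr*, the main VEGF receptor, had medians of 468, 26.5 and 770 CPM in high, low and endothelial-dominant cells. *Tek*, the angiopoietin receptor, had medians of 435, 4.30 and 473 CPM. *Flt1*, the decoy VEGF receptor, differed least among these: it was at 142.7, 1332 and 3951 CPM in high cells (lowest, median, highest), 0, 550 and 2020 CPM in low cells and 1181, 1824 and 4574 CPM in endothelial-dominant cells, so that 3 of 13 low cells exceeded the high median. *Esam*, a junctional adhesion molecule, stood at 1529 CPM in high, 1097 CPM in low and 1523 CPM in endothelial-dominant cells. *Cdh5* (VE-cadherin) had medians of 198 and 0 CPM in high and low cells, yet sums of 220 and 160 CPM, because 1 low cell held 52.5% of the low counts.

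**Figure D2:**
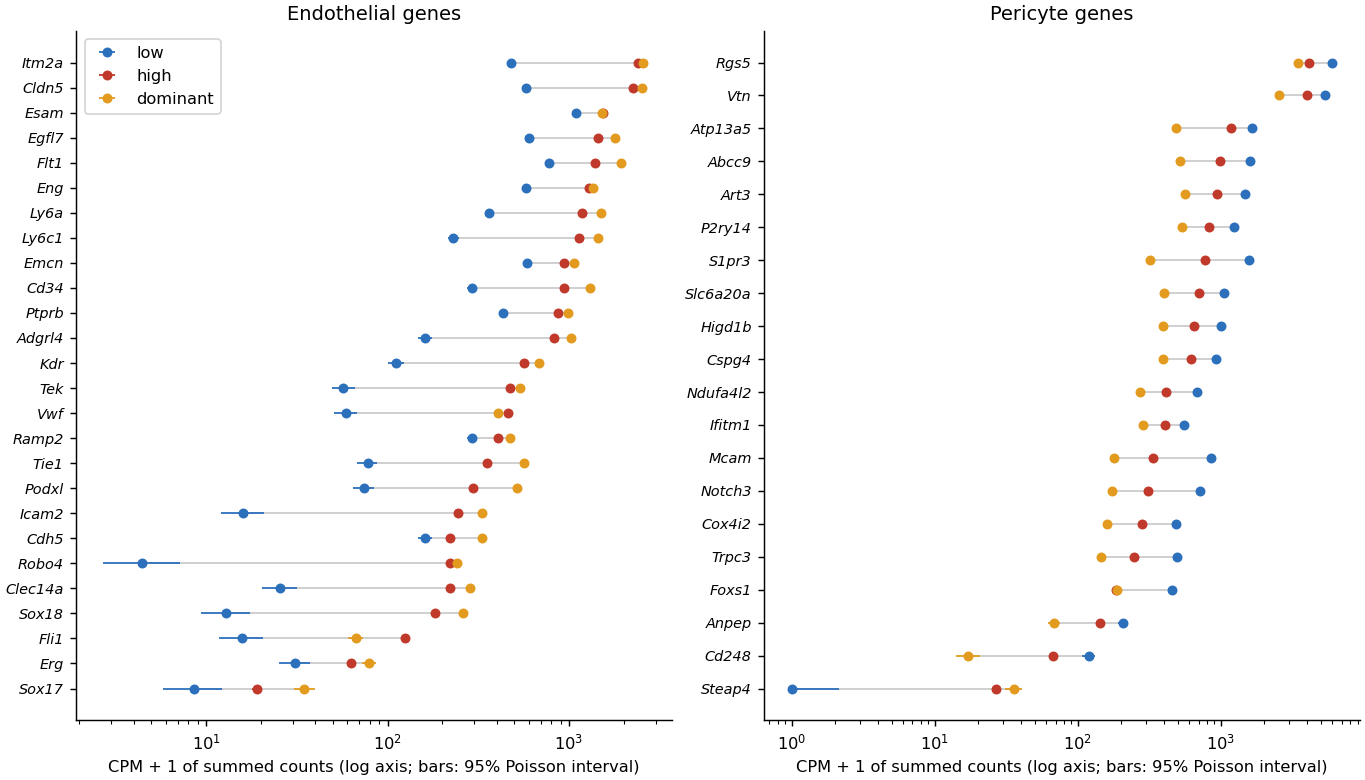
Level of each endothelial and pericyte gene in the summed counts of low, high and endothelial-dominant cells (CPM + 1, log axis; bars are exact 95% Poisson intervals of the counts). Endothelial genes are ordered low, high, dominant in 23 of 26 cases and pericyte genes the other way in 18 of 20. *Steap4* is the pericyte gene that runs against its list. The groups were made by *Pecam1* and *Pdgfrb* of the same cells, so nothing is read from these orders.

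The low cells were not uniformly free of endothelial RNA. On plate 213 *Cldn5* stood at 872, 902, 1147, 1183, 1366 and 1564 CPM in 6 of 10 low cells, and at 208, 86.8, 28.8 and 6.57 CPM in the other 4. On plate 209 the 3 low cells had 8.33, 12.1 and 12.7 CPM. These 6 low cells had summed endothelial levels of 8215 to 14507 CPM although *Pecam1* was at 38.8 CPM or less. The 5 cells between the thresholds had endothelial sums of 2353, 18215 and 22517 CPM (lowest, median, highest), and 1 of them had 23757 CPM over the smooth muscle genes.

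Of 20 genes of barrier transport and tight junctions, 19 were higher in the sums of high than of low cells, beside 5176 of all 10062 genes tested. Over these 20 genes the summed level per cell had a median of 16248 CPM in high, 4284 CPM in low and 19426 CPM in endothelial-dominant cells, and 13 of 20 genes were at least 2-fold higher in high than in low cells in the sums and on each plate, none lower, beside 15.0% of all genes tested. These are the same cells that *Pecam1* grouped, and nothing is read from the difference in shares here or for the lists that follow. *Slc2a1*, the glucose transporter GLUT1, was at 0, 1882 and 3960 CPM in high cells and 0, 234 and 807 CPM in low cells. *Slco1a4*, an organic anion transporter, had medians of 1901 and 24.9 CPM in high and low cells, and 70.9% of its low counts came from 1 cell. *Ocln* (occludin) had medians of 401 and 4.15 CPM and was above every low cell in all but 36 high cells. *Abcb1a*, the efflux pump P-glycoprotein, had sums of 644 and 95.7 CPM. *Slc22a8* and *Slc16a1*, transporters of organic anions and lactate, differed little in the sums, with log2 differences of 0.38 and -0.09.

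Across the high cells the endothelial and barrier sums followed each other, with Spearman's rho 0.82 (0.71 on plate 209 and 0.85 on plate 213), both being shares of the same library. *Pecam1*, whose range the rule limits, had rho 0.19 with the endothelial sum, from which nothing is read. The endothelial sum was lower in deeper cells (rho with total counts -0.44), and so was the pericyte sum (-0.42). The endothelial and pericyte sums were related at rho -0.23.

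Of 8 genes of the endothelial Wnt programme, which keeps the barrier in place, 7 passed the filter and 3 were at least 2-fold higher in high than in low cells in the sums and on each plate, beside 15.0% of all genes tested. The list median was 0.57 in the sums, 1.93 on plate 209 and 0.29 on plate 213. Without the low cells rich in smooth muscle genes, described below, it was 1.18. The 3 genes included *Lef1* (129.2 and 20.1 CPM in the sums) and *Apcdd1* (249 and 81.9 CPM). *Axin2*, a general Wnt target, was at 48.7 CPM in high and 75 CPM in low cells. *Foxf2*, which brain pericytes also express, was at 95.9 and 136.8 CPM.

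Genes of vessel segments differed in how they were spread. Among 8 arterial genes, 7 were lower in the sums of high than of endothelial-dominant cells, beside 4731 of all 10062 genes tested. The median log2 difference, endothelial-dominant minus high, was 0.82 in the sums, -0.17 on plate 209 and 1.91 on plate 213, so its direction differed between plates. *Vegfc* had a count in 12 high cells and was at 0 in 16 of 19 endothelial-dominant cells, its sums were 8.49 and 87.3 CPM, and 1 cell held 70.97% of the latter. *Bmx* and *Gkn3* stood at 26.1 and 26.4 CPM in high and 47.6 and 57.7 CPM in endothelial-dominant cells. No low cell had a *Bmx* count, which makes the high sum at least 27.8-fold higher against a floor of 3 counts over the low cells. *Gja4*, a connexin that mural cells also use, ran the other way with 498, 780 and 354 CPM in high, low and endothelial-dominant cells. The list median of the arterial genes, high minus low, was 3.38, or 2.90 with the 3 genes at 0 in low cells set to that floor. Only 5 of the 8 genes passed the filter. The per-cell sum over the list ran the other way, with medians of 561 CPM in high and 753 CPM in low cells. Of 13 low cells, 10 exceeded the high median of this sum.

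*Slc38a5*, a glutamine transporter of capillary and venous endothelium, also separated high from low cells. It was at 0, 365 and 2645 CPM in high cells, 0, 0 and 31.1 CPM in low cells and 0, 528 and 1223 CPM in endothelial-dominant cells. The sums of 473 and 3.14 CPM differed 150.7-fold, with log2 differences of 8.75 and 6.62 on the 2 plates, and all but 45 high cells exceeded every low cell. *Vcam1*, a leukocyte adhesion molecule of venules, was found in few high cells: 31 had a count and 1 cell held 30.4% of the counts. *Car4*, a carbonic anhydrase, was alike in the sums of all groups, at 1478, 1640 and 1192 CPM in high, low and endothelial-dominant cells.

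In their summed counts, high cells held RNA from both ends of paracrine pairs that link the lineages. Some of these genes had a count in only a minority of high cells. Of 15 genes on the endothelial side, 9 were at least 2-fold higher in high than in low cells in the sums and on each plate, beside 15.0% of all genes tested. *Pdgfb*, the ligand of *Pdgfrb*, was at 0, 72.7 and 946 CPM in high cells (lowest, median, highest), 0, 0 and 58.3 CPM in low cells and 0, 102.9 and 367.5 CPM in endothelial-dominant cells, and 82 high cells exceeded every low cell. *S1pr1*, the sphingosine-1-phosphate receptor of endothelium, had sums of 544 and 47.1 CPM in high and low cells. *Edn1* (endothelin-1) had 42.1 CPM in high and 154.7 CPM in endothelial-dominant cells, and 43 high cells had a count. *Dll4*, *Notch1*, *Notch4* and *Angpt2* had log2 differences between 0.14 and 0.46 and did not pass the fold.

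On the pericyte side of the same pairs, 9 of 10 genes passed the filter. In the sums and on each plate, 3 were at least 2-fold lower in high cells and 1 was higher. Of all genes tested, 3.91% were lower and 15.0% were higher. *Notch3*, the Notch receptor of mural cells, was at 2.90, 279 and 948 CPM in high cells, 248, 625 and 1771 CPM in low cells and 20.8, 124.8 and 415 CPM in endothelial-dominant cells, and 12 of 13 low cells exceeded the high median. Its target *Heyl* had sums of 289, 678 and 188 CPM. *Angpt1*, the Tie2 ligand, stood at 6.21 and 40.8 CPM, but 60.8% of the low counts were in 1 cell and the log2 difference of -2.53 became 2.85 without the 3 low cells rich in smooth muscle genes described below. The list median, high minus low, was -1.05 in the sums and -0.20 without these 3 cells. In tdTomato+ cells it stood at 0.08, and in tdTomato- cells at -1.18. The gene that was higher, *Ednrb* (an endothelin receptor), was at 27.6 CPM in high cells with a count in 29 cells.

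Pericyte genes were lower in high than in low cells and lowest in endothelial-dominant cells. The rule picked endothelial-dominant cells for *Pecam1* at or above *Pdgfrb*, so nothing is read from this order. The summed level of 20 pericyte genes without *Kcnj8* and *Pdgfrb* was 9076, 17456 and 35679 CPM in high cells (lowest, median, highest), 14131, 29150 and 40693 CPM in low cells and 5911, 11703 and 18908 CPM in endothelial-dominant cells. Of 13 low cells, 12 exceeded the high median, and 18 of 19 endothelial-dominant cells lay below it. The groups overlapped, as 29 high cells lay below every low cell and none above all of them. The median log2 difference, high minus low, was -0.64 (-0.82 on plate 209, -0.59 on plate 213), with 19 of 20 genes below 0, beside 4886 of all 10062 genes tested.

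The differences of single pericyte genes were small beside those of endothelial genes. *Rgs5*, a G protein regulator and classical pericyte marker, had sums of 4136, 5928 and 3436 CPM in high, low and endothelial-dominant cells. *Abcc9*, the partner subunit of *Kcnj8* in the same channel, had 988, 1592 and 518 CPM. *Vtn* (vitronectin) had 3978, 5363 and 2550 CPM, and *Atp13a5*, a transporter specific to pericytes of brain and cord, had 1174, 1656 and 485 CPM. Only *Notch3*, also counted on the pericyte side of the pairs above, and the transcription factor *Foxs1* (185, 455 and 188 CPM) were at least 2-fold lower in high cells in the sums and on each plate. *Mcam*, an adhesion molecule of mural cells, had the most negative log2 difference in the list, -1.33, but stood at -0.84 on plate 209. *Steap4*, a metalloreductase, was at 0 in every low cell and at 26.02 CPM in high cells, where 29 cells had a count.

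Expressed as shares of the reference groups, high cells held a median of 80.7% of the endothelial-dominant level over the 26 endothelial genes, and low cells 22.3%. Over the 20 pericyte genes, high cells held a median of 63.5% of the low level, and endothelial-dominant cells 37.8%. All these are shares of a library, so that more RNA of 1 lineage lowers the share of the other even at equal amounts, and fewer molecules of a gene cannot be told apart from more of the rest.

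**Figure D3:**
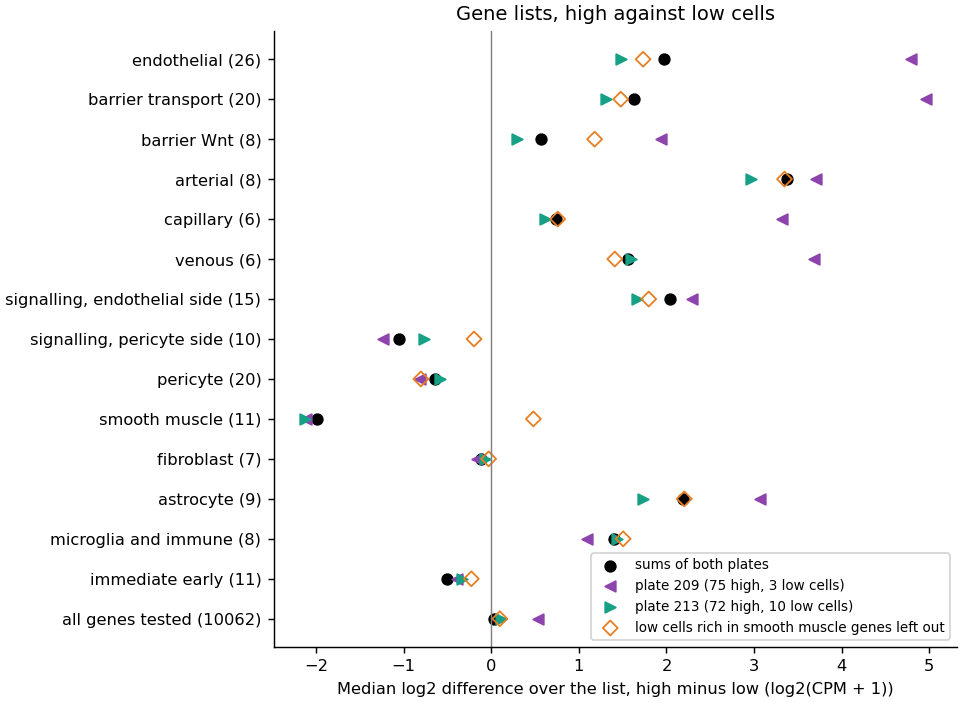
Median log2 difference, high minus low, for each gene list (number of genes in brackets), in the sums, on each plate and with the 3 low cells rich in smooth muscle genes left out. The endothelial list stands at 1.97 and the pericyte list at -0.64, plate 209 lies farther out for most endothelial lists, and the smooth muscle list turns from -1.99 to 0.48 when those cells are left out.

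The label pericyte held for most low cells but not all. Over 11 smooth muscle genes, 3 of 13 low cells had 15668, 16286 and 24346 CPM, with *Acta2* (smooth muscle actin) at 5220, 9763 and 8715 CPM. The other 10 low cells had 2335 CPM or less and no more than 8.60 CPM of *Acta2*. The highest high cell had 6821 CPM over the list. These 3 cells had *Kcnj8* at 1520, 274 and 192 CPM and endothelial sums of 3861, 1483 and 1325 CPM. Smooth muscle genes turned with them: 8 of 11 smooth muscle genes (10 past the filter) were at least 2-fold lower in high than in low cells, beside 3.91% of all genes tested, with a list median of -1.99, and the median was 0.48 without these cells. Without them the endothelial median was 1.73 and the pericyte median -0.80.

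Markers of other cell types were low beside the endothelial sum. The 9 astrocyte genes had per-cell sums with medians of 111.2, 15.1 and 114.6 CPM in high, low and endothelial-dominant cells and a highest value of 4171 CPM in a high cell, and 3 of 5 genes past the filter were at least 2-fold higher in high cells, beside 15.0% of all genes tested (list median 2.19, or 1.85 with genes at 0 set to the floor). *Gja1*, the astrocyte connexin that endothelial cells also express at a low level, was at 108.8, 18.5 and 100 CPM in the sums, and *Gfap* and *Aqp4* were at 7.63 and 9.10 CPM in high cells. The 8 microglia and immune genes had medians of 48.7, 57.9 and 90.1 CPM and highest values of 3945, 275 and 224 CPM, with *Ptprc* at 0.683, 0.314 and 0.654 CPM in the sums. The 7 fibroblast genes had medians of 176, 437 and 83.4 CPM. Oligodendroglial genes had medians of 57.3, 77.4 and 62.6 CPM, and neuronal and red cell genes had medians of 0 to 1.53 CPM. The list medians, high minus low, were 1.41 for microglia and immune, -0.12 for fibroblast, 0.15 for oligodendroglial, -0.09 for neuronal and -0.74 for red cell genes. With genes at 0 in low cells set to the floor, the microglia and immune median was 1.09, the fibroblast median -0.17 and the oligodendroglial median -0.40, which turns its sign. The part of these cells in the results was not tested.

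The number of genes per cell moved with the groups. After thinning to 20000 counts, high cells had 2806, 4460 and 6131 genes detected (lowest, median, highest), low cells 3087, 3608 and 4741 and endothelial-dominant cells 3550, 5050 and 5728. Only 1 of 13 low cells exceeded the high median, and 13 of 19 endothelial-dominant cells did. The median total was 264298, 232437 and 328091 counts in high, low and endothelial-dominant cells, and the median mitochondrial share was 0.943%, 1.29% and 0.996%. Sorting gated on single events by scatter, and no doublet caller was run. Whether a well held more than 1 cell was not tested.

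Of 11 immediate early (stress) genes, 8 were lower in high than in low cells, beside 4886 of all 10062 genes tested. None passed the 2-fold rule. The list median, high minus low, was -0.51 in the sums, -0.39 on plate 209 and -0.34 on plate 213. It was 0.27 among tdTomato+ cells and -0.59 among tdTomato- cells. *Fos* had sums of 2023, 2213 and 2263 CPM in high, low and endothelial-dominant cells. *Atf3*, a stress-induced factor, was at 165 and 553 CPM in high and low cells, with log2 differences of 0.46 on plate 209 and -2.00 on plate 213.

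Over all genes tested, those of the lists included, 1505 of 10062 were at least 2-fold higher in high cells in the sums and on each plate, and 393 were lower. The ranking by size took the higher genes with 50 CPM or more in the sum of high cells and a count in 20% or more of them. The leading genes were *Slc35f2*, *Mal*, *Mfng*, *Slc38a5*, *Tmem176b*, *Slc52a3*, *Pecam1* (which made the groups), *Ptprr*, *Cyb561* and *Tnfsf10*. *Slc35f2*, a solute carrier, was at 227 CPM in high and 291 CPM in endothelial-dominant cells and in no low cell. *Mal*, a membrane raft protein, was at 229, 0.628 and 407 CPM in high, low and endothelial-dominant cells. *Mfng*, a glycosyltransferase that modifies Notch, was at 137.1 and 181 CPM in high and endothelial-dominant cells and 0 in low cells. The genes ranked lowest in high cells were led by *Pdlim3*, *Insc* and *Tagln*, and 52.2% to 59.3% of the low counts of these 3 genes lay in 1 cell. Their log2 differences of -5.73, -5.19 and -4.40 became 1.56, 0.50 and 2.50 without the 3 low cells rich in smooth muscle genes. Of the other genes in this ranking, *Pln*, *Asb2* and *Map3k7cl* also turned sign without these cells. *Thsd4*, *Akap6*, *Adamtsl1* and *Ing2* stayed lower, at -2.80, -1.15, -1.65 and -3.67.

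For some genes the summed level of high cells lay above or below the sums of both other groups. Single cells overlapped, as the per-cell median of *Retsat* and *Bop1* was 0 in each group. By the same level rule, with the same direction on each plate, the genes farthest above both were *Retsat*, *Bop1*, *Slc39a3*, *Dcun1d2* and *Mthfd1*. *Retsat*, a retinol saturase, was at 76.7, 1.26 and 10.46 CPM in high, low and endothelial-dominant cells, with counts in 37.4% of high cells, and *Bop1*, a ribosome assembly factor, at 68.1, 0 and 10.8 CPM, with counts in 48.3%. The genes farthest below both were *Pdk2*, *Khdrbs1*, *Procr*, *Zfp101* and *Ift122*, with log2 differences of -1.41 to -1.69 from the nearer group. None of these genes is in a list, and all are measured in 13 and 19 cells of the other groups, where 1 cell held 47.04% to 74.3% of the low counts of the 5 genes below both. The difference of *Procr* was 0.78 without the low cells rich in smooth muscle genes, and that of *Ift122* was 0.83 among tdTomato+ cells.

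The rule was also applied to cells taken 3 days after SCI. Of 73 such cells, 24 were high (32.9%, 22.3 to 44.9), 47 low and 2 endothelial-dominant. Among tdTomato- cells alone, high cells made up 22 of 69 (31.9%, 21.2 to 44.2) after SCI against 61 of 76 without injury, and their share was 27.9% on plate 211 and 38.5% on plate 215. Only 4 tdTomato+ cells met the rule after SCI, so no share is read for them. Uninjured and injured cells lie on different plates, so injury and plate cannot be told apart.

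Low cells after SCI held less endothelial RNA than uninjured low cells. Their endothelial sum was 777, 2485 and 4077 CPM (lowest, median, highest), all below the lowest high cell after SCI at 6054 CPM, whereas the uninjured groups overlapped. Their median *Cldn5* was 2.65 CPM, against 208 CPM in uninjured low cells. High cells after SCI had a median endothelial sum of 23052 CPM, near the 21219 CPM of uninjured high cells, but with other levels of single genes. Median *Flt1* was 452 CPM after SCI and 1332 CPM without injury, median *Slco1a4* was 785 and 1901 CPM, and median *Slc22a8* was 59.5 and 709 CPM. Median *Cldn5* was 3528 and 2398 CPM, and median *Vwf* (von Willebrand factor) was 995 and 313 CPM. Over the 26 endothelial genes the median log2 difference between high and low cells after SCI was 5.55, and over the 20 pericyte genes it was -0.26.

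**Figure D4:**
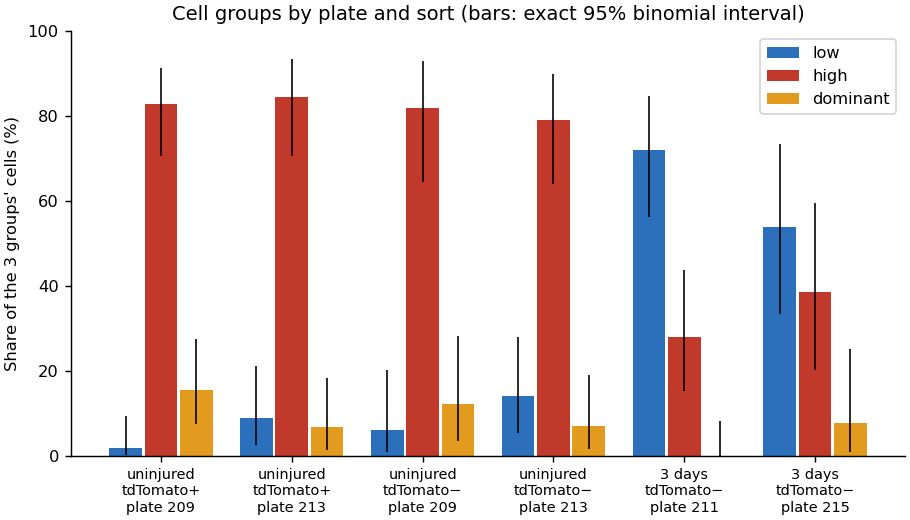
Share of low, high and endothelial-dominant cells among the cells that met the rule, by plate and sort; bars are exact 95% binomial intervals and tdTomato+ cells after SCI are left out because only 4 met the rule. High cells make up 79.1% to 84.4% of the uninjured cells of each plate and sort, and 27.9% and 38.5% of tdTomato- cells on the 2 plates of injured cells.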

How the data were processed

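Single EGFP+ cells of the mouse spinal cord were profiled by Smart-seq3. The deposited values are raw counts (genes in rows, cells in columns, no normalization); the submitters' processing notes name mm10, and the aligner, the annotation and the kind of event counted (reads or molecules) are not given in the sources used here. Of 1968 cell columns, 503 matched the labels and the other 1465 were not used. The 92 ERCC rows name no gene, had no count in uninjured cells and were left out of totals. The study's own processing removed cells with much *Pecam1* and little *Pdgfrb* as endothelial; no such filter was applied here, and no doublet caller was run.

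Cells with under 20000 counts (31 uninjured cells) were left out. The *Pecam1* threshold is 1 on the scale ln(1 + counts per 10000). Within each group the counts of all cells were added, scaled to CPM and compared as log2(CPM + 1), which understates changes of genes near 1 CPM. Sums held 43934169 counts in high, 3186786 in low and 6119620 in endothelial-dominant cells, so 3 counts over the low cells are 0.941 CPM. Per-cell totals were 27097 to 801455 counts in high, 34551 to 481661 in low and 56213 to 697382 in endothelial-dominant cells. A gene passed the fold when it had 10 CPM or more in the mean of high and low cells and differed 2-fold or more one way in the sums and on plates 209 and 213. Intervals are exact Poisson or Clopper-Pearson at 95%; amplified reads are not independent molecules. With 1 sample a group, no p-value was computed.

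Named genes were list genes, the 10 genes with the largest log2 difference in each direction past the fold, reaching 50 CPM and detected in at least 20% of cells in the higher group, and the 5 farthest outside both other groups each way; mitochondrial, ribosomal and predicted genes were left out. Members and lists were chosen with earlier results of these data known. Alternatives covered edgeR (4.0.16) TMM and DESeq2 (1.42.0) scaling, the pseudocount, thinning, thresholds, plates and sorts. The summing was tested on simulated data. Python 3.11, pandas and scipy were used. The values of 1 list gene are not reported here.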

Additional observations from a re-analysis of the deposited data

How the results depend on the processing

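The share of high cells kept within 79.4% to 85.5% in the alternatives run, and both list medians kept their sign. The endothelial median was 4.79 without plate 213, where 3 low cells are left. The pericyte median was -0.82 without plate 213 and -0.80 without the 3 low cells rich in smooth muscle genes, an alternative chosen after seeing the data. Genes at least 2-fold higher in high cells numbered 2615 without plate 209, 3549 without plate 213, 2279 among tdTomato+ cells and 3471 with no filter on low values, against 1505. Genes at least 2-fold lower numbered 242 with a pseudocount of 10 CPM, 1600 without plate 209 and 2092 without plate 213, against 393. With 1 plate the rule asks for the fold on fewer plates, and with no filter more genes are tested; the cause of the other changes was not tested. The single genes run were the list genes past the 2-fold rule and the genes in the rankings, not all genes past the rule. Over these genes and the alternatives, 942 results stayed alike, 277 moved and 13 turned sign. The 13 were *Ift122* to 0.83 among tdTomato+ cells and, without the low cells rich in smooth muscle genes, *Acta2* to 5.28, *Angpt1* to 2.85, *Asb2* to 3.20, *Insc* to 0.50, *Lmod1* to 2.42, *Map3k7cl* to 1.43, *Mustn1* to 0.48, *Myh11* to 0.42, *Pdlim3* to 1.56, *Pln* to 1.38, *Procr* to 0.78 and *Tagln* to 2.50. Genes outside that set were not run, and some of them also differ in sign between parts of the data: on plate 209 *Atf3* was at 0.46, *Foxf2* at 0.81 and *Slc16a1* at 7.20, and among tdTomato- cells *Axin2* was at 1.09. No paired analysis was possible because no label names an animal and replicate numbers only count cells. The 13 low cells limit every difference between high and low cells.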
